A study of Mus musculus with 12 samples.

Results

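The 10 genes described here are the glucose transporter Slc2a1 and 9 enzymes that carry glucose to lactate, namely Hk2, Gpi1, Aldoa, Tpi1, Gapdh, Pgk1, Pgam1, Eno1 and Ldha. They were chosen by name as members of 1 pathway and are 10 of the 25793 gene entries in the count table. Each had an entry in both the count table and the table of FPKM values (fragments scaled by transcript length and sequencing depth). Of the 10, 8 passed the filter on low counts and were tested, and Slc2a1 and Hk2 did not.

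Glycolysis breaks glucose down in the cytosol and yields ATP, reducing equivalents and carbon for biosynthesis. Glucose enters through transporters of the Slc2a family, is trapped by a hexokinase, is split into triose phosphates and leaves the pathway as pyruvate, which lactate dehydrogenase can turn into lactate. Activated T cells are known to raise their glucose uptake and glycolytic enzymes, and PD-1 signalling is known to restrain glucose use in T cells.

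The libraries were made from transferred T cells of C57BL/6 background that carried the OT-II transgenic receptor, which recognises an ovalbumin peptide, and that had been transduced to express GFP. The donors were either wild type (WT, Pdcd1+/+) or homozygous for a Pdcd1 knock-in allele (KI), and Pdcd1 encodes PD-1. The labels do not describe the knock-in allele further. Both kinds of T cell went into B6 recipients, which keep their own lymphocytes, together with dsRed-expressing MD4 B cells, which are specific for hen egg lysozyme (HEL). Recipients were immunized under the skin with HEL-OVA, and the treatment label adds LPS and alum. CXCR5-high OT-II cells were sorted from lymph node on day 5 in small pools of 100 to 200 cells, from which polyadenylated RNA was amplified by an adapted single-cell protocol. There were 6 WT and 6 KI libraries, each titled with its genotype and 2 numbers, such as WT 1-3. The first number, 1 or 2, was shared by 3 libraries of each genotype, and the labels do not say what it stands for. Nothing states that the libraries came from separate animals, so p-values measure only the spread between these libraries, which may be technical.

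Counts assigned to genes ranged from 717506 to 1801504 per library. The shallowest library, WT 1-3, stood apart with 43.8% of its reads aligned to several places, where the median library had 28.3%. Pdcd1 was lower in every KI library, at 21.5 to 129.5 CPM (counts scaled to a common library total), than in every WT library, at 166 to 523 CPM (log2 difference of KI from WT -2.05, adjusted p 0.231 in edgeR's quasi-likelihood test). With the first number as a further term in that fit, the difference was -2.24 (edgeR adjusted p 7.62e-06). All 5 T helper markers (Cd3e, Cd3d, Cd3g, Cd4 and Cxcr5) passed the filter on low counts, with a summed level of 2694 to 3884 CPM. Summed erythroid markers stayed at or below 5.08 CPM. Of the B cell markers, Cd79b ran from 30.2 to 66.2 CPM in WT and from 5.08 to 36.2 CPM in KI, and Cd79a from 9.56 to 36.2 CPM in WT and from 2.77 to 29.9 CPM in KI. Ms4a1 ran from 12.6 to 58.9 CPM in WT and from 2.75 to 14.6 CPM in KI, and Ebf1 was at 0 in every KI library.

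Promoter sequences are shown for 5 of the enzymes, picked after their differences between libraries with first number 1 and 2 were seen. Aldoa, Eno1 and Gpi1 were lower with first number 2 at an adjusted p under 0.05 (edgeR), whereas Pgk1 and Ldha were not. Gapdh, Tpi1 and Pgam1 did not pass that threshold either and are not printed. Because of this choice, the windows cannot test a link between the letters and the differences. Each line is the 250 bases upstream of the gene's most upstream start listed by RefSeq on GRCm38.p6, written 5′ to 3′ on the coding strand. Capitals mark the letters ACGTG on either strand, the core of the motif bound by HIF-1, where CACGTG holds 2 overlapping matches. The windows are chr7:126800448-126800697 (minus strand) for Aldoa, chr4:150236458-150236707 (plus strand) for Eno1, chr7:34230337-34230586 (minus strand) for Gpi1, chrX:106186850-106187099 (plus strand) for Pgk1 and chr7:46845554-46845803 (plus strand) for Ldha.
Aldoa: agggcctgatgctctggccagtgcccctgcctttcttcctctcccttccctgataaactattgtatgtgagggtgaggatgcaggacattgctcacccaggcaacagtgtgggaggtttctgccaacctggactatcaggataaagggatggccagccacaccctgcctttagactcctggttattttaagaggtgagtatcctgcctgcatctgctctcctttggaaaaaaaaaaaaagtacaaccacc
Eno1: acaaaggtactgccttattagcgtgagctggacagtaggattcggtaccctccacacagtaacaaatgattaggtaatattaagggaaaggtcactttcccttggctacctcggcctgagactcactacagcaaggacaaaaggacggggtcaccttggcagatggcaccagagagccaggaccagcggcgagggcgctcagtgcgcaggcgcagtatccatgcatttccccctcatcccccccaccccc
Gpi1: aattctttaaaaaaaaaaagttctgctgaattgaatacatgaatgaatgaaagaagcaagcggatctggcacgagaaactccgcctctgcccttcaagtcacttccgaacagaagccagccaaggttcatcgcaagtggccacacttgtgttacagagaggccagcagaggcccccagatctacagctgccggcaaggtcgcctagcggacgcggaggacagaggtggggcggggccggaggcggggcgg
Pgk1: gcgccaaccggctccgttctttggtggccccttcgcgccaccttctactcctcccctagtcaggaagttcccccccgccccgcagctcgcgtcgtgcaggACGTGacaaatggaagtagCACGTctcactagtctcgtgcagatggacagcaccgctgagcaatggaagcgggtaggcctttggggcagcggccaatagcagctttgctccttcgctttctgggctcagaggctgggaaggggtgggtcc
Ldha: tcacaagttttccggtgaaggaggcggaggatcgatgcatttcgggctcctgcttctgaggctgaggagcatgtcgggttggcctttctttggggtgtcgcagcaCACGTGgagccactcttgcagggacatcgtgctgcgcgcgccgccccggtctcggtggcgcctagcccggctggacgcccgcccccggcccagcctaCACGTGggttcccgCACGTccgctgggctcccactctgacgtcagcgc

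The Ldha window held 5 matches to ACGTG, among them 2 CACGTG words, and the Pgk1 window held 2 matches. The Aldoa, Eno1 and Gpi1 windows held 0. Windows of 2 further Aldoa starts overlap each other and held 1 match, which is the same site in both. The other Eno1 and Ldha starts held 0. Of the remaining genes, Hk2 had 2 matches, and Slc2a1 and Pgam1 had 1 each. Tpi1 and Gapdh had 0, and neither passed the threshold between first numbers. Among 32851 promoter windows of the same length in the RefSeq table, 16.6% held ACGTG and 6.02% held CACGTG. Which start these cells used was not measured, and a match describes the letters only.

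Levels can be compared between genes only per transcript length, and on that scale the pathway spanned a wide range. Gapdh, which makes 1,3-bisphosphoglycerate and NADH, led with 1224 ± 206 FPKM (SD, n = 12). Ldha, which turns pyruvate into lactate, followed with 447 ± 97.0 FPKM (SD, n = 12). Both steps down in this order, from Gapdh to Ldha and from Ldha to Pgk1, held in 12 of 12 libraries (2-sided exact sign-flip permutation test of log2 ratios, adjusted p 0.000977 each, Benjamini-Hochberg over 10 neighbouring pairs). The order was set by mean FPKM in these same libraries, so the test describes only how evenly each step held. Transcript stretches that occur elsewhere in the genome, described below, may also shift these levels, and the test does not cover that.

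Pgk1, which makes ATP from 1,3-bisphosphoglycerate, stood at 239 ± 60.9 FPKM and Aldoa, which splits fructose bisphosphate, at 233 ± 109.6 FPKM (SD, n = 12 each). The order of these neighbours was not resolved, since Pgk1 was higher in only 6 of 12 libraries (exact sign-flip permutation test, adjusted p 0.594). Gpi1, the isomerase that follows hexokinase, had 117 ± 40.3 FPKM, Eno1 111 ± 31.5 FPKM and Pgam1 98.9 ± 31.1 FPKM (SD, n = 12 each). These neighbours were not separated beyond their spread either (exact sign-flip permutation tests, adjusted p 0.594 and 0.356). Eno1 and Pgam1 encode the enolase and the mutase of the lower pathway.

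The low end held the transporter, the hexokinase and, with it, triose phosphate isomerase. Tpi1 had 11.2 ± 5.62 FPKM, below pyruvate kinase (listed as Pkm2) at 31.6 ± 9.74 FPKM in 12 of 12 libraries. The level and rank of Tpi1 are uncertain, since part of its transcript occurs elsewhere and it overlaps another gene, as described below. In WT 1-3 it had 0 counts but 1.88 FPKM. Slc2a1 had 1.52 ± 0.883 FPKM and Hk2 0.249 ± 0.356 FPKM (SD, n = 12 each). Ranked by mean FPKM among all named entries, Gapdh stood at 102, Ldha at 178, Tpi1 at 3730, Slc2a1 at 8540 and Hk2 at 11594.

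**Figure D1:**
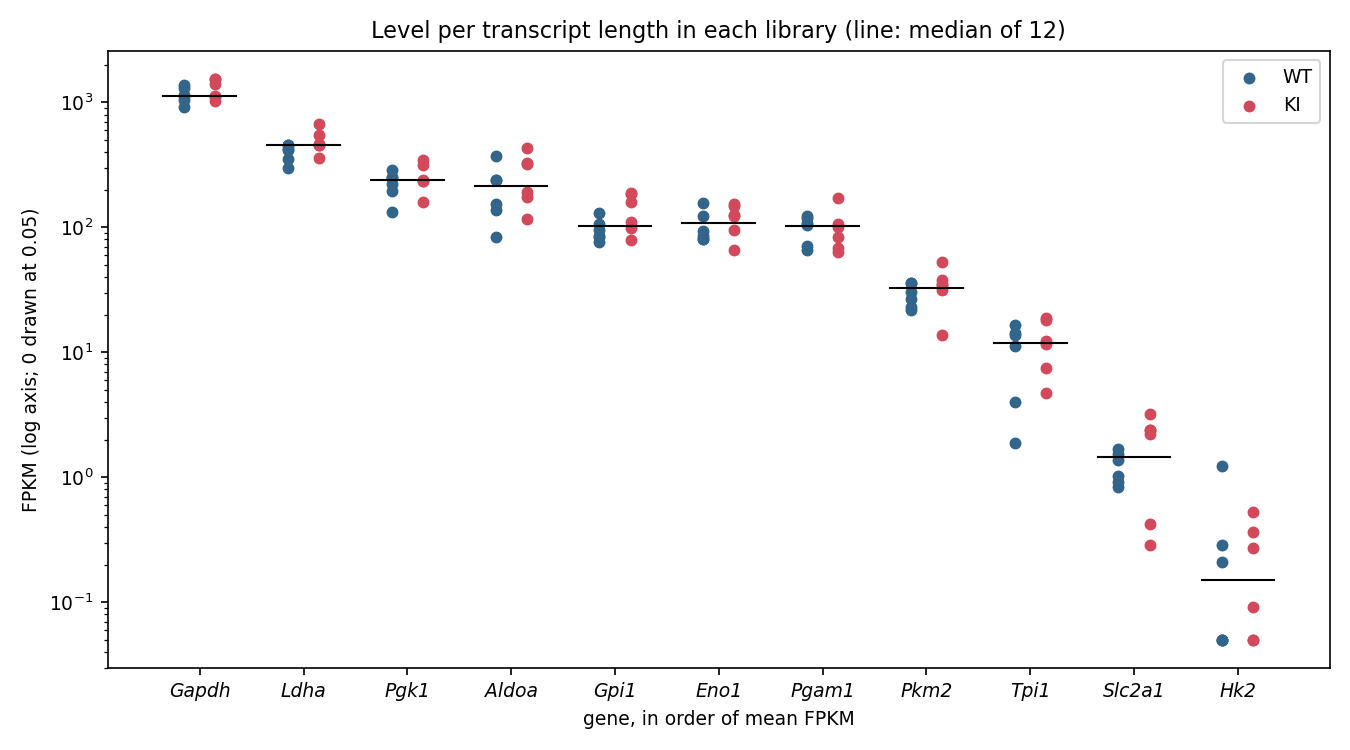
FPKM of the 10 genes and of Pkm2 in each of 12 libraries on a log axis, with WT in blue, KI in red and a line at the median of 12. Gapdh lies near 1224 FPKM, while Slc2a1 and Hk2 lie near 1.52 and 0.249 FPKM on average, and WT and KI points overlap for every gene.

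Slc2a1 encodes GLUT1, the glucose transporter that activated lymphocytes are known for. Its raw counts were 4, 3, 3, 7, 3 and 5 in the WT libraries and 1, 13, 10, 1, 10 and 14 in the KI libraries. Scaled to depth, KI values lay on both sides of the WT values, with 3 KI libraries above and 2 below all WT libraries. The mean of the WT libraries was 3.59 ± 1.27 CPM and that of the KI libraries 5.23 ± 3.68 CPM (SD over 6 libraries), a difference within the spread (2-sided exact permutation test on log2(CPM + 1), p = 0.712). Over all WT reads the summed count was 25, or 3.31 CPM of the unscaled total (95% exact Poisson interval 2.14 to 4.89). Over all KI reads it was 49, or 5.59 on the same unscaled basis (95% exact Poisson interval 4.13 to 7.39). Amplified reads are not independent molecules, so these intervals cover counting error only.

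Hk2, the inducible hexokinase, was near the limit of detection. It had 0 counts in 3 WT and 2 KI libraries and 1 to 7 counts in the others, with summed counts of 12 in WT and 13 in KI. A count of 0 allows a level of up to 1.69 to 3.54 CPM in the 5 libraries at 0, since 3 counts amounted to that much there. WT and KI could not be told apart at this depth (2-sided exact permutation test on log2(CPM + 1), p = 1). The highest value, 12.5 CPM in WT 1-3, came from 7 counts. WT 1-3 was also the library with 62 counts of Csf1r and 56 of Lyz2, which are myeloid markers, and the part of other cells in its Hk2 count was not tested.

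KI was compared with WT, the comparison named in the design of the series, and a gene counted as called at an adjusted p under 0.05. None of the 8 tested enzymes was called by edgeR's quasi-likelihood test, and none had an unadjusted p below the threshold. With the first number as a further term none was called either, and Gpi1 alone had an unadjusted p below the threshold (edgeR p 0.0106). With that term, 4 of all 7542 genes were called and 628 (8.33%) had an unadjusted p below the threshold. The genotype intervals below come from the fit without that term, whose SEs were larger for all tested members but Tpi1. Over all 7542 genes tested, the fit without the first number called 2, which is 0.0265% of them. In that fit 407 (5.40%) had an unadjusted p below the threshold. Of the 8 enzymes 7 had a higher estimate in KI, with a median log2 difference of 0.17 where all tested genes had 0.02. Over all tested genes 51.6% had a higher estimate. The genotype difference also moved with transcript GC content, with medians of -0.20 in the lowest of 5 GC bins and 0.10 in the highest. With GC offsets, described below, the same 7 estimates were smaller, from 0.02 for Gapdh to 0.34 for Gpi1. The part of GC content in these estimates was not tested. Neither DESeq2, limma-voom nor any other fit run called a member. In bulk libraries, fewer cells expressing a gene and less RNA per cell cannot be told apart.

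Gpi1, which interconverts glucose 6-phosphate and fructose 6-phosphate, had the largest estimate. With first number 1 its level was 484, 454 and 401 CPM in the WT libraries and 625, 762 and 621 CPM in the KI libraries. With first number 2 it was 316, 352 and 311 CPM in WT and 479.95, 374 and 309 CPM in KI. The genotypes did not overlap in the libraries with first number 1 and overlapped in those with first number 2. How many of all tested genes separate in this way was not computed, so the separation cannot be called particular to Gpi1. The log2 difference of KI from WT was 0.45 (SE 0.22, 95% interval -0.00 to 0.91, edgeR adjusted p 0.919). Within first number 1 it was 0.57 (SE 0.20, edgeR adjusted p 0.323), and within first number 2 it was 0.25 (SE 0.23, edgeR adjusted p 0.970).

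Ldha was the most even of the members among the WT libraries. Its level was 853, 842, 859, 871, 939.9 and 939.0 CPM in WT and 1266, 818, 991, 1258, 878 and 1181 CPM in KI. Of the KI libraries 4 lay above every WT library, 1 lay among them and 1 lay below all of them. The log2 difference was 0.27 (SE 0.17, 95% interval -0.08 to 0.62, edgeR adjusted p 0.938), and it was 0.26 within first number 1 and 0.27 within first number 2.

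The other enzymes of the upper and middle pathway gave smaller or less certain estimates. Aldoa differed by 0.25 on the log2 scale (95% interval -0.44 to 0.94), with 0.15 and 0.45 within first numbers 1 and 2. Tpi1, which interconverts the triose phosphates, differed by 0.18 (95% interval -1.07 to 1.42) and rested on 0 to 30 counts per library. Its estimate was 0.77 within first number 1, -0.31 within first number 2 and -0.04 without WT 1-3, so its direction was not settled.

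The enzymes from Gapdh to Eno1 were similarly placed. Gapdh differed by 0.11 (95% interval -0.28 to 0.50), Pgk1 by 0.16 (95% interval -0.22 to 0.54) and Eno1 by 0.14 (95% interval -0.32 to 0.60). Pgam1 alone had a lower estimate in KI, at -0.04 (95% interval -0.49 to 0.41), with 0.19 within first number 1 and -0.29 within first number 2. The B cell markers Ms4a1, Cd79b and Cd79a also had lower estimates in KI, at -2.04, -1.36 and -1.32 (edgeR adjusted p 0.487, 0.914 and 0.914), and their part in the enzyme estimates was not tested.

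**Figure D2:**
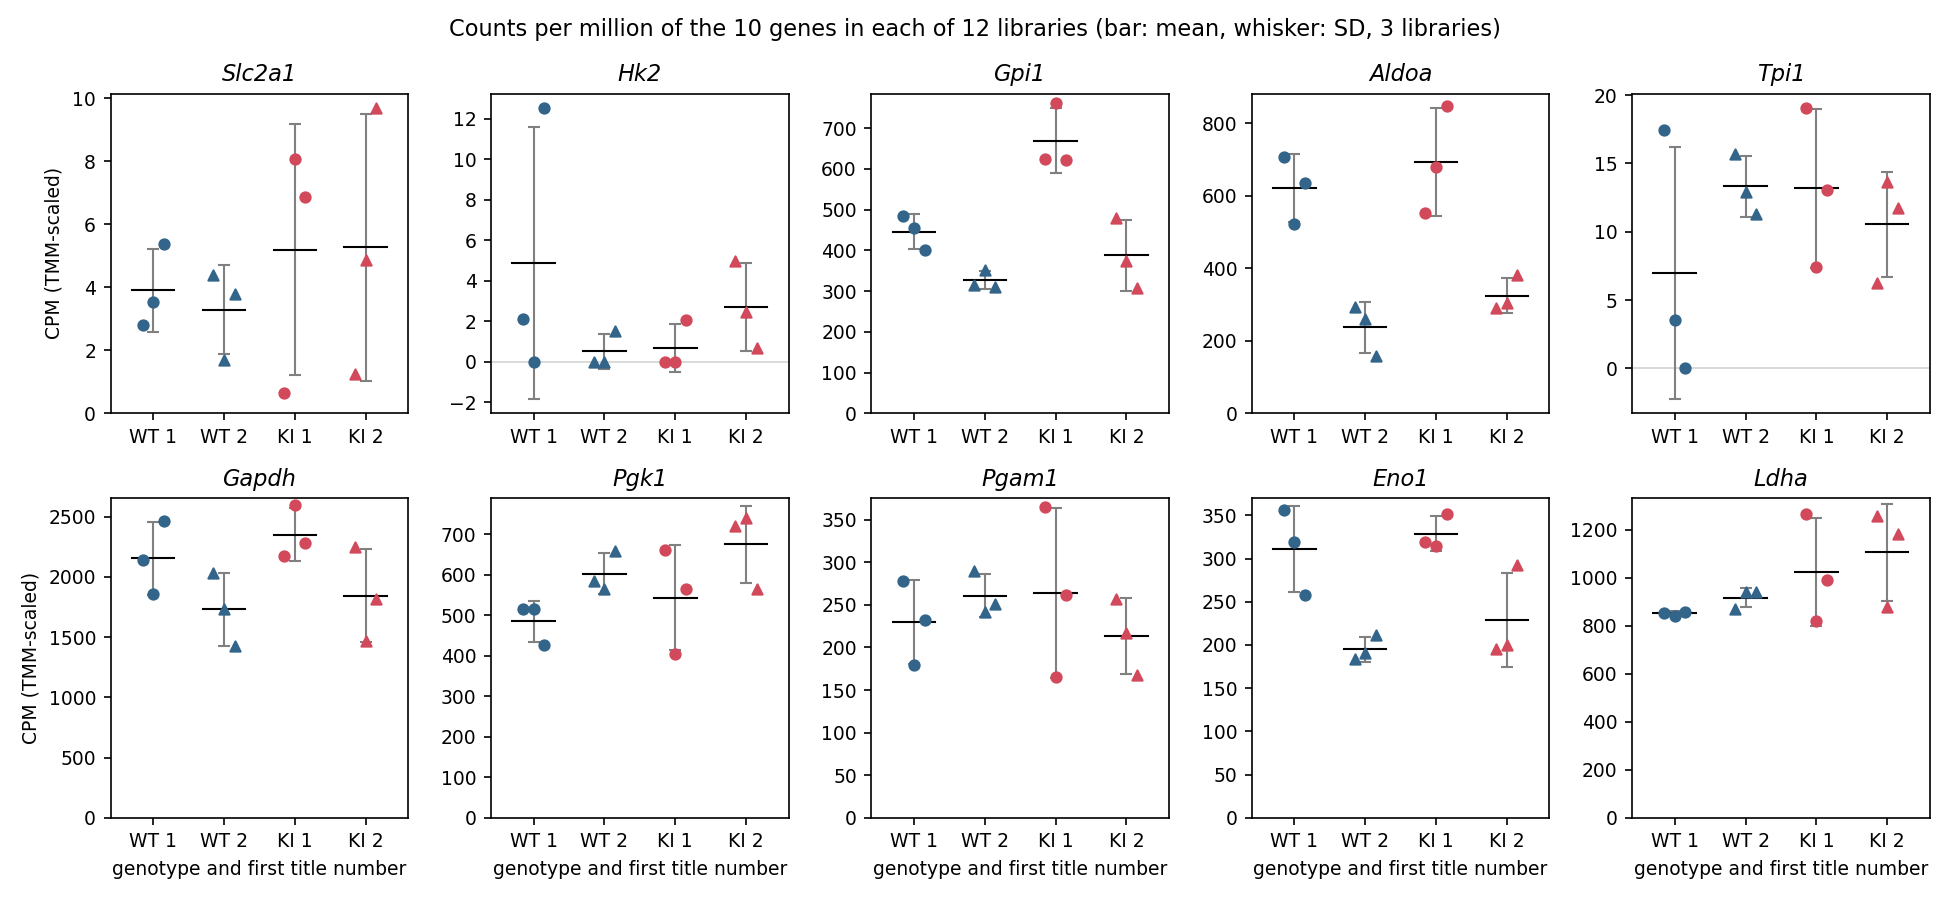
CPM of each of the 10 genes in every library, with WT in blue, KI in red, circles for first number 1 and triangles for first number 2, and the mean and SD of each set of 3 libraries. Aldoa separates by first number (all values of first number 1 are at or above 521 CPM, all of first number 2 at or below 381 CPM), while the genotypes overlap. The share of all tested genes that separate so was not computed.

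Libraries with first number 2 were compared with those with first number 1, with genotype as a covariate. Aldoa, Gpi1 and Eno1 were lower with first number 2, and no member was called higher without correction for transcript length. Over all genes tested 16.0% were called, 8.47% as higher and 7.54% as lower, so 3 of 8 members called lower stands beside a large background. Genes with at least 1 count numbered 10331 to 10701 per library with first number 1 and 10782 to 11115 with first number 2, and the part of this difference was not tested. Counts per library overlapped, at 717506 to 1733739 and 936912 to 1801504.

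Aldoa had the largest difference of the members. With first number 1 its level was 707, 521 and 635 CPM in WT and 553, 679 and 848 CPM in KI. With first number 2 it was 294, 261 and 158 CPM in WT and 289, 305 and 381 CPM in KI. No value of first number 2 reached the lowest of first number 1. How many of all tested genes separate in this way was not computed. Aldoa fell by 1.24 on the log2 scale (SE 0.17, edgeR adjusted p 7.89e-05), from 657 ± 118 to 281 ± 72.6 CPM (SD, n = 6 each). The difference was -1.41 among WT libraries alone and -1.09 among KI libraries alone (edgeR adjusted p 0.0101 and 0.0128).

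Eno1, which makes phosphoenolpyruvate, had 356, 319.6 and 258 CPM in WT and 319.6, 315 and 352 CPM in KI with first number 1. With first number 2 it had 183, 191 and 211 CPM in WT and 196, 199.8 and 292 CPM in KI. Only KI 2-3 reached the range of first number 1. Eno1 fell by 0.60 (log2, SE 0.15, edgeR adjusted p 0.0108).

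Gpi1 fell by 0.62 (log2, SE 0.15, edgeR adjusted p 0.00660), from 558 ± 135 to 357 ± 65.6 CPM (SD, n = 6 each). Its per-library values are those given above, and the KI library with 479.95 CPM overlapped first number 1. Neither Gpi1 nor Eno1 was called among the WT libraries alone or the KI libraries alone (edgeR adjusted p 0.175 and 0.0567 for Gpi1, 0.0854 and 0.214 for Eno1). On the log2(FPKM + 1) scale with limma, Aldoa alone of the members was called, at -1.18 (adjusted p 0.00157).

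The other 5 tested enzymes were not called. Gapdh had 2253 ± 260.3 CPM with first number 1 and 1789 ± 317 CPM with first number 2 (log2 difference -0.33, edgeR adjusted p 0.137). Pgk1 went the other way, with 514 ± 93.8 and 639 ± 78.9 CPM (log2 difference 0.31, edgeR adjusted p 0.156; SD, n = 6 for all 4 means). With offsets for transcript length, chosen after seeing the data, Pgk1 was called higher with first number 2 (0.43, edgeR adjusted p 0.0458). Ldha differed by 0.11, Pgam1 by -0.07 and Tpi1 by 0.23 on the log2 scale (edgeR adjusted p 0.660, 0.855 and 0.836).

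Transcript GC content moved with the difference between first numbers. When the 7120 tested genes with a protein-coding transcript in GENCODE vM1 were put into 5 equal bins by GC content of the longest transcript, the median log2 difference fell from 0.70 in the lowest bin to -0.53 in the highest. Of the genes called in the lowest bin, 369 were higher with first number 2 and 11 lower. In the highest bin, 6 were higher and 313 lower. Bins by transcript length ran over a narrower range, from -0.12 in the shortest to 0.21 in the longest.

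Of the members, Aldoa (56.9% GC), Eno1 (57.4%) and Gapdh (56.6%) fell into the highest GC bin, and Gpi1 (55.7%), Tpi1 (53.5%) and Pgam1 (53.1%) into the next. Ldha (51.0%) and Pgk1 (49.7%) fell into the middle bin. A fit with offsets for a GC trend in each library, chosen after seeing the data, was therefore set beside the fit without them. With the offsets Aldoa still fell by 0.81 on the log2 scale (SE 0.16, edgeR adjusted p 0.00398). Gpi1 was at -0.26 and Eno1 at -0.13, and neither was called (edgeR adjusted p 0.333 and 0.689). Gapdh changed sign to 0.08 and Pgam1 to 0.12. The offsets cut the number of genes called over the whole table from 1208 to 431.

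**Figure D3:**
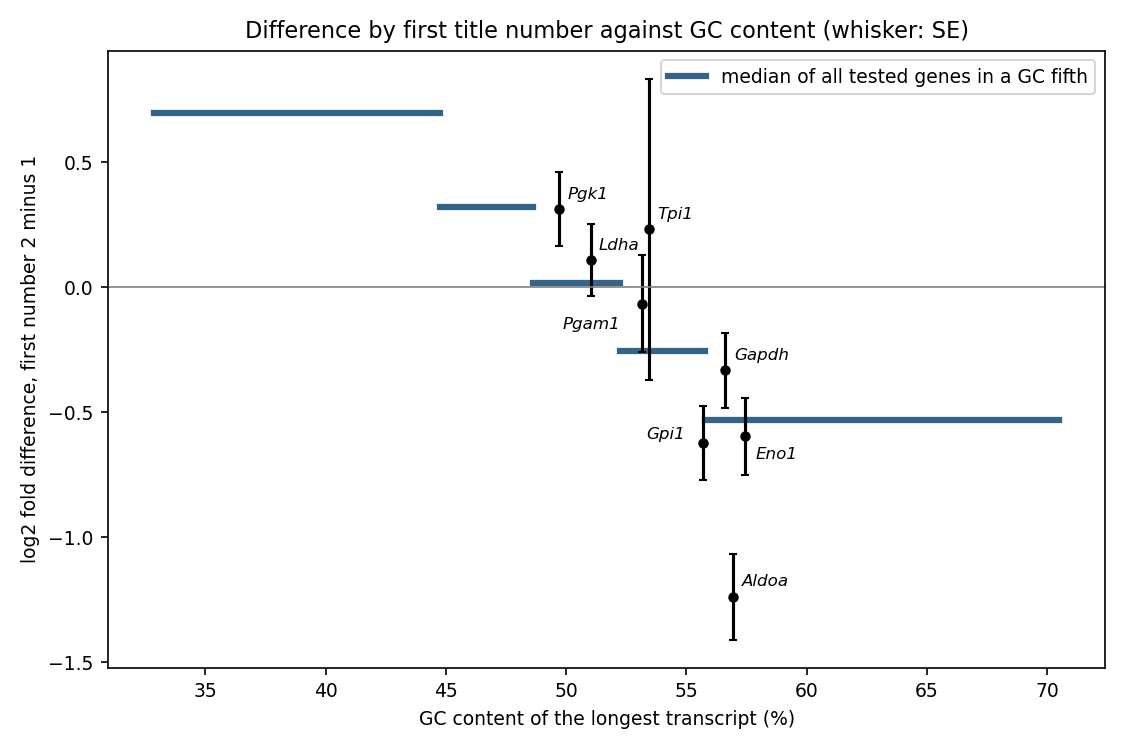
Log2 difference of first number 2 from 1 (vertical axis, whiskers SE) against GC content of the longest transcript (horizontal axis, percent) for the 8 tested enzymes, with blue bars at the median of all tested genes in each GC bin. The bars step down from 0.70 to -0.53, and Aldoa at -1.24 lies below the bar of its bin.

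**Figure D4:**
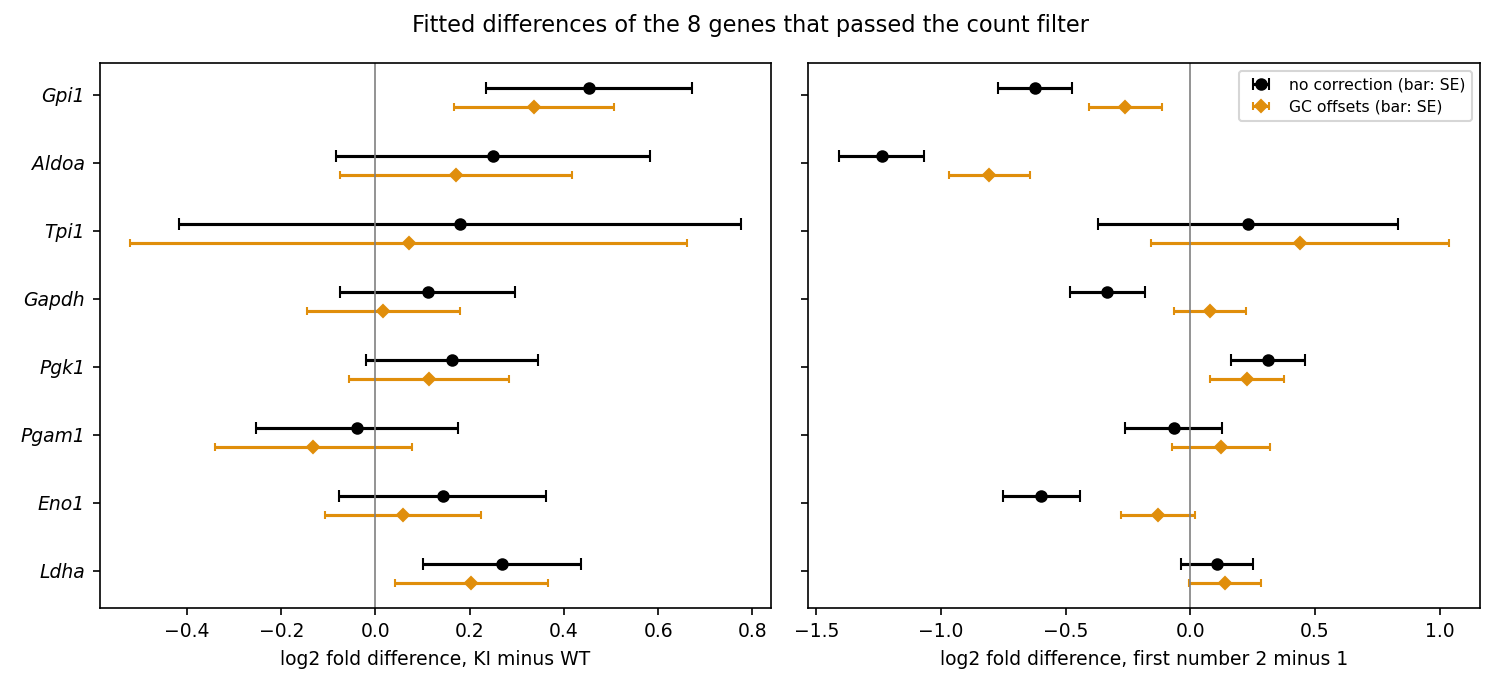
Log2 differences of the 8 tested enzymes between genotypes (left) and between first numbers (right), without correction in black and with GC offsets in orange, each with its SE. Estimates of KI against WT lie between -0.13 and 0.45, and in the right panel Aldoa at -1.24 remains at -0.81 with the offsets while Gpi1 and Eno1 move to -0.26 and -0.13.

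Whether the genotype difference itself differed between first numbers was tested as an interaction. None of the 8 enzymes was called by edgeR, with an unadjusted p below the threshold for 0 of them. Over all genes 0% were called by edgeR, 544 had an unadjusted p below the threshold, and DESeq2 called 7 genes. The interaction estimates with the largest size were -1.07 for Tpi1 (95% interval -3.56 to 1.41) and -0.48 for Pgam1 (95% interval -1.27 to 0.30). For Gpi1 the estimate was -0.34 (95% interval -0.94 to 0.27).

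The ratio of Aldoa to Pgk1 within a library was looked at after their values were seen and is given with no test. On the log2 scale it lay between -0.26 and 0.75 in libraries with first number 1 and between -2.06 and -0.57 in those with first number 2. The genotypes overlapped, with means of -0.52 ± 1.04 in WT and -0.35 ± 0.89 in KI (SD, n = 6 each). The transcripts of these genes differ in GC content, as given above.

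Most steps had a further gene for the same reaction, and shares of summed FPKM show which form prevailed. Aldoa made up 96.7% ± 2.39 of the aldolase signal in WT and 97.4% ± 1.20 in KI, the rest being Aldoc. Ldha made up 96.6% ± 1.18 in WT and 96.1% ± 1.32 in KI, the rest being Ldhb. Eno1 made up 94.3% ± 3.11 and 96.0% ± 4.79 of enolase (SD, n = 6 for all 6 means). Pklr, known from liver and red cells, and Pgk2 and Ldhc, known from testis, were listed at 0 in every library, as was Hk3.

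At entry into the pathway, partners of the 2 members had the higher mean levels. Hk1 had 6.18 ± 1.82 FPKM (SD, n = 12) and Hk2 made up 5.04% ± 7.98 of hexokinase in WT and 3.06% ± 2.78 in KI (SD, n = 6 each). Slc2a3, the transporter GLUT3, had 3.16 ± 1.66 FPKM (SD, n = 12). Slc2a1 made up 32.3% ± 9.98 of both transporters in WT and 38.3% ± 29.9 in KI (SD, n = 6 each), with KI libraries from 6.08% to 87.9%. Pfkp led phosphofructokinase, with 85.2% ± 5.83 in WT and 82.7% ± 2.39 in KI (SD, n = 6 each).

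None of 7 shares computed differed between genotypes beyond the spread (2-sided exact permutation tests, adjusted p 0.861 for each). Between first numbers the Aldoa share fell from 98.5% ± 0.701 to 95.6% ± 1.44 (exact permutation test, adjusted p 0.0152). The Ldha share rose from 95.4% ± 0.625 to 97.3% ± 0.801 (exact permutation test, adjusted p 0.0227; SD, n = 6 for all 4 means). Aldoc and Ldhb transcripts have 51.9% and 53.0% GC, against 56.9% for Aldoa and 51.0% for Ldha, and the part of GC content in the shares was not tested.

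**Figure D5:**
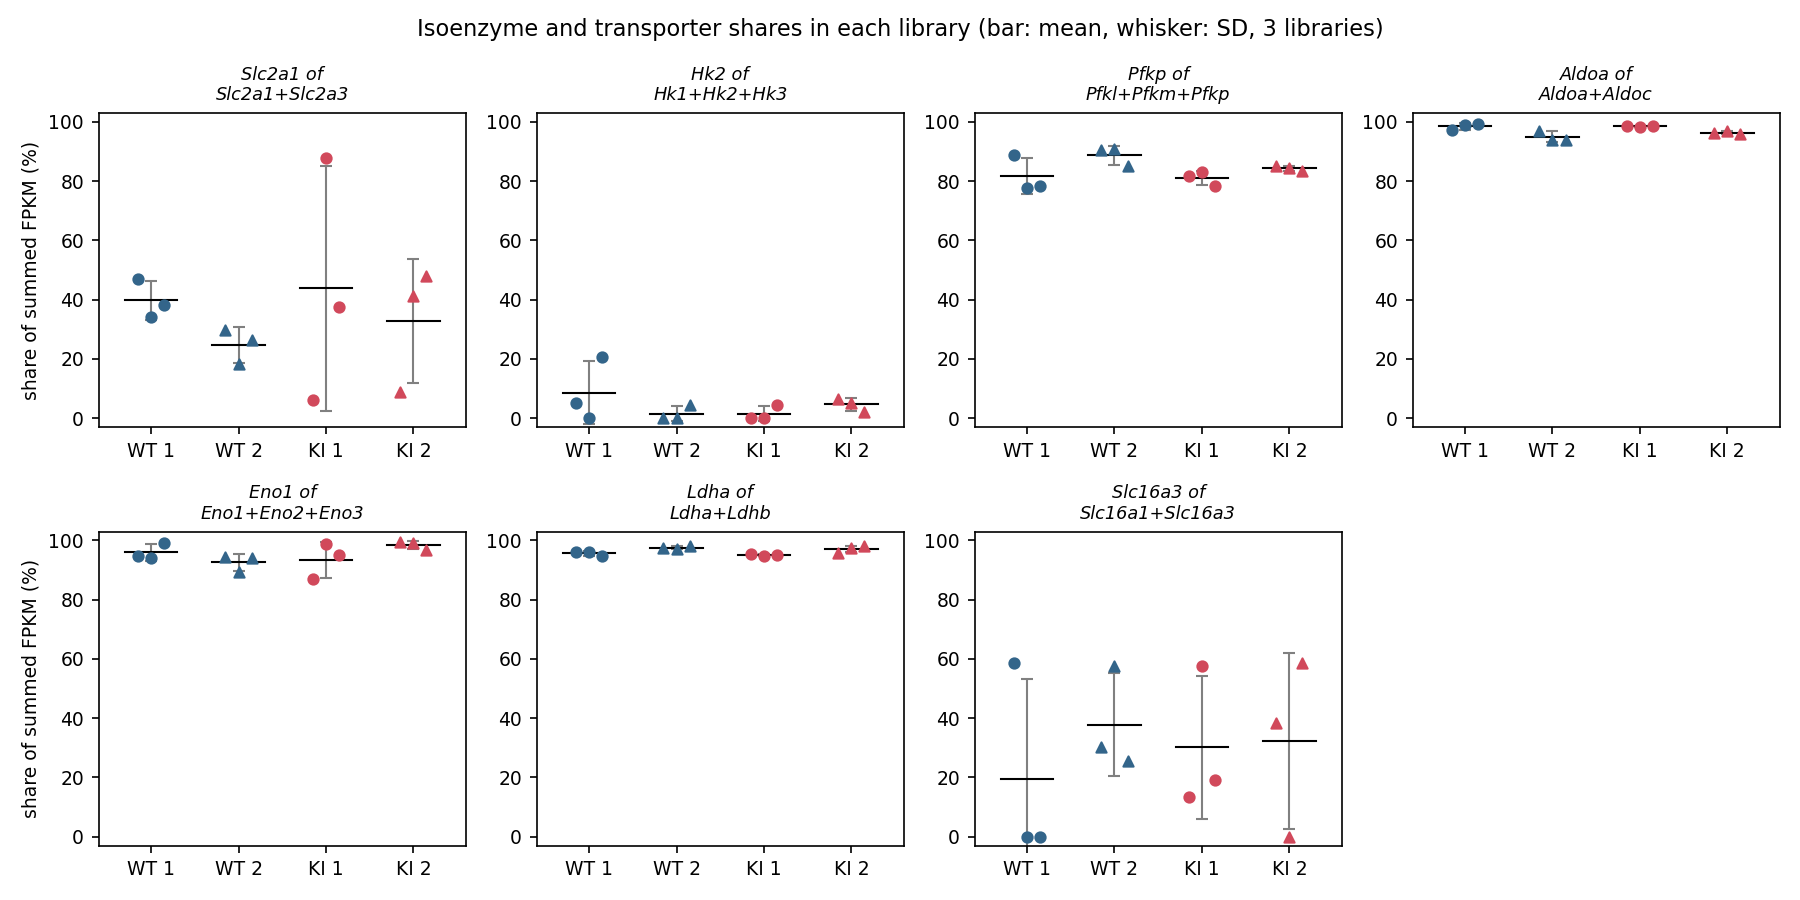
Share of each member or partner in the summed FPKM of its isoenzyme or transporter group, in percent, per library by genotype (blue WT, red KI) and first number, with the mean and SD of each set of 3. Aldoa, Eno1 and Ldha hold most of their groups in every library, at or above 86.8%, while the Slc2a1 share in KI ranges from 6.08% to 87.9%.

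A list of 28 further glycolysis genes held 15 that passed the filter and 6 at 0 in every library. In KI 12 of the 15 had higher and 3 had lower estimates, with a median log2 difference of 0.36, and edgeR called none. Over all tested genes 51.6% had a higher estimate. The smallest p belonged to Bpgm, which makes 2,3-bisphosphoglycerate, at 1.20 (SE 0.47, edgeR adjusted p 0.914). Between first numbers edgeR called Pfkfb3, which makes the activator of phosphofructokinase, as higher (1.23, adjusted p 0.0497). It called Bsg, the chaperone of lactate transporters, as lower (-0.65, adjusted p 0.0365). With GC offsets neither was called (edgeR adjusted p 0.107 and 0.823).

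Known regulators of the pathway were compared in the same fits. Of 23 tested regulators, edgeR called none between genotypes, 12 having higher and 11 lower estimates in KI. Hif1a, whose protein activates many glycolysis genes when oxygen is low, differed by -0.52 in KI (SE 0.44, edgeR adjusted p 0.938). Between first numbers Hif1a rose by 1.63 (edgeR adjusted p 0.000252), and with GC offsets by 0.88 (edgeR adjusted p 0.0227). Its transcript has 41.3% GC. Hif1a RNA was higher with first number 2, where Aldoa was lower. Hif1a falls into the lowest GC bin and Aldoa into the highest, and a link between their levels was not tested. Myc, another activator, did not pass the filter and had 69 counts over the WT and 77 over the KI libraries.

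Of 10 tested HIF-1 targets outside glycolysis, edgeR called none between genotypes and Egln1, an oxygen sensor, as lower with first number 2 (-0.78, adjusted p 0.0168). Of 17 tested citric acid cycle genes none was called between genotypes, and 4 (Sdha, Sucla2, Fh1 and Mdh1) were called higher with first number 2. Of these, Sdha alone was called with GC offsets (0.64, edgeR adjusted p 0.0499). Of 24 listed genes outside the 10 members that were called between first numbers, 24 kept their sign and 5 kept the call with the offsets. Those 5 were Hif1a, Sdha, Cxcr5, Nkg7 and Pdcd1. Cxcr5 and Pdcd1 were lower with first number 2 (-0.72 and -1.56, edgeR adjusted p 0.00208 and 8.38e-05), and the others were higher. With the offsets Cxcr5 was at -0.56 and Pdcd1 at -1.26. Nkg7, a cytotoxic marker, rose by 2.09. Of 7 listed cytotoxic and natural killer markers, 2 passed the filter. Summed over all 7, these markers ran from 47.2 to 184 CPM with first number 1 and from 209 to 455 CPM with first number 2. How many other sets of genes separate in this way was not computed. Which cells carried these transcripts was not measured, and the part of cytotoxic or natural killer cells in the Aldoa difference was not tested.

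The members did not move as 1 block across libraries. KI 1-1 and KI 1-3 were above the median for 8 of 8 tested members, whereas KI 1-2 held the highest value of 2 members and the lowest of 3. Pearson's r of a member's log2 CPM with the mean standardized level of the tested members ran from 0.13 for Pgk1 to 0.72 for Gpi1 over the 12 libraries, which include the member itself in that mean. The non-members most like that mean were Dcaf5 (r = 0.88), Gm16515 (0.84), Rbck1 (0.83), 0610010K14Rik (0.83), 0610031J06Rik (0.83) and Bzrap1 (0.82). These points share depth and GC composition, and the values are a description.

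Several members have near-identical copies elsewhere, which bears on how reads could be assigned. On mm9, Gapdh lies at chr6:125111871-125116485 on the minus strand, and 85.8% of the 32-base windows of its transcript occur elsewhere in the genome. The share was 94.0% for Pgk1 (chrX:103382439-103399038), 93.9% for Pgam1 (chr19:41986361-41993154) and 77.0% for Eno1 (chr4:149610830-149622988). It was 51.5% for Ldha (chr7:54096845-54110997), 48.2% for Gpi1 (chr7:34987141-35015308) and 38.7% for Aldoa (chr7:133938748-133944265). Slc2a1 (chr4:118781316-118809935) had 0% and Hk2 (chr6:82675019-82724448) 0.547%. The counts left out reads aligned to several places, so the levels of genes with high shares are uncertain in them. How the FPKM values treated such reads is not stated.

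Tpi1 (chr6:124760604-124764314) had 37.8% of such windows and overlaps the protein-coding gene Spsb2 on the opposite strand. Its FPKM times transcript length in kilobases, divided by its CPM, was 1.64, where the median of 7120 genes was 0.746 and 3.68% were at or above Tpi1. Whether counting used strand is not stated, so how reads in the stretch shared by Tpi1 and Spsb2 were assigned is not known. The length of that stretch was not measured.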

How the data were processed

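The authors deposited a table of raw read counts per gene (25793 gene entries and 5 summary entries, left out of totals and tests) and a table of FPKM values (25819 entries, with values of 27 repeated names summed here). The submitters' processing notes name CASAVA, TopHat2, Cufflinks, HTSeq, DESeq2 and the mm9 build, without roles. Of the reads in a library, 46.1% to 60.2% were assigned to genes and 26.7% to 43.8% were set aside as aligned to several places. Transcript GC content and length and mm9 coordinates came from GENCODE vM1, of which 7120 of the tested genes (94.4%) had a transcript. Promoters came from RefSeq. Some listed genes are not reported here.

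The counts were tested with edgeR 4.0.16 under R 4.3.3 (default filterByExpr, TMM, quasi-likelihood F test, Benjamini-Hochberg over 7542 genes, threshold 0.05). CPM values are TMM-scaled counts, except where an unscaled total is named. Single values were compared by exact permutation over 924 assignments, or 400 within first numbers. The members, lists and tests were chosen with earlier results of these data known. The text names the members, Pdcd1, the isoenzyme and transporter partners, Hif1a and Myc. It names listed genes past the threshold (up to 4 per direction, otherwise drawn from the 2 with the smallest p) and the 6 genes most like the members. Each of the 30 pairs of libraries with 1 genotype differed beyond sampling noise (chi-square over degrees of freedom, 8.58 to 37.0). Sampling noise here is counting error only, and amplification adds to it, so this cannot show that the libraries are independent. The fits were tested on simulated data. Alternatives were DESeq2 1.42.0, limma 3.58.1 (voom, and log2 FPKM with pseudocounts 1 and 0.1), other scalings and filters, blocks, and each library left out. Offsets for GC content and length were added after seeing the data.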

Additional observations from a re-analysis of the deposited data

Results flagged for a closer look

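Among 34 sets of 6 values of 1 genotype checked (CPM of the members and isoenzyme shares), 3 had an end value far from the others, where chance gives about 1 set in 20. Hk2 was highest in WT 1-3 at 12.5 CPM, with the next WT library at 2.09 CPM. The Hk2 share of hexokinase was likewise highest in WT 1-3 at 20.6%, with the next at 5.26%. Both rest on 7 counts. The Eno1 share of enolase was lowest in KI 1-1 at 86.8%, with the next KI library at 95.1%.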

How the results depend on the processing

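No member was called between genotypes under any of the alternatives run. Over all genes, the count called between KI and WT was 2. It was 11 with DESeq2, 1 with limma-voom, 0 with limma on log2(FPKM + 0.1) or log2(FPKM + 1), 4 without the filter, 1 within first number 2 and 0 to 2 with single libraries left out. The log2 difference of Pgam1 ran from -0.29 to 0.19 and that of Tpi1 from -0.31 to 0.77 over the alternatives. When first number entered the fit as replicate block, 4 genes were called, and again 4 with GC offsets added. With this block Gpi1 was at 0.41 (edgeR adjusted p 0.421) and Pdcd1 at -2.24 (edgeR adjusted p 7.62e-06). The 2 numbers together were not taken to pair the libraries. Correlations of deviations of the 6 equally numbered pairs ran from 0.08 to 0.26, and 2 of 6 WT libraries correlated best with the KI library of their own number. The first number alone did set libraries apart. Such correlations ran from 0.04 to 0.39 for WT and KI libraries sharing it and from -0.33 to 0.01 for those not sharing it. The SE of the genotype difference was 0.33 for Aldoa without the block and 0.17 with it.

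Between first numbers 1208 genes were called. The count was 359 among KI libraries alone, 381 among WT libraries alone, 782 with log2(FPKM + 0.1), 431 with GC offsets and 751 to 1252 with single libraries left out, the lowest without KI 2-2. Of the members 3 were called, but 1 (Aldoa) among KI libraries alone, among WT libraries alone, with log2(FPKM + 0.1), with log2(FPKM + 1) and with GC offsets. With offsets for transcript length 4 were called, the further one being Pgk1 as higher (0.43, edgeR adjusted p 0.0458). Aldoa was called in 26 of 26 alternatives, at -1.41 to -0.81. Gpi1 and Eno1 were each called in 21 of 26. Of the interaction, 0 genes were called, but 7 with DESeq2 and 140 without the filter. Depth limits Slc2a1, Hk2 and Tpi1, whose largest counts were 14, 7 and 30. The causes of these differences were not tested.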

Other observations

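Cell cycle genes, a fixed list outside the glycolysis comparisons, had higher estimates in KI for 23 of 24 tested genes, with a median log2 difference of 0.45 where all tested genes had 0.02. Over all tested genes 51.6% had a higher estimate. With the first number in the fit, 21 cell cycle genes were higher and 3 lower. Their summed level overlapped, at 1016 to 1652 CPM in WT and 1141 to 2487 CPM in KI. The estimates rest on the same libraries, so a count of signs is no test. Of the cell cycle genes edgeR called none, and 3 had an unadjusted p below the threshold. Mcm7, a subunit of the replicative helicase, differed by 1.01 (edgeR adjusted p 0.914) and Birc5, which encodes survivin, by 1.24 (edgeR adjusted p 0.917). Of 7 tested serine and one-carbon genes 5 had higher estimates in KI, among them Psat1 at 0.73 and Phgdh at 0.86 (edgeR adjusted p 0.914 and 0.917), which branch off glycolysis at 3-phosphoglycerate. Txnip, which restrains glucose uptake, differed by 0.56 in KI (edgeR adjusted p 0.914).

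Of 9 tested pentose phosphate genes, edgeR called Prps1 as higher (1.18, adjusted p 0.00781) and Taldo1 as lower (-0.83, adjusted p 0.00372) with first number 2. With GC offsets the values were 0.71 and -0.60 (edgeR adjusted p 0.154 and 0.0541). Among regulators Batf was lower with first number 2 (-1.12, edgeR adjusted p 0.00877), and with the offsets it was at -0.72 (edgeR adjusted p 0.134). The glutamine carrier Slc1a5 was lower as well (-0.74, edgeR adjusted p 0.00628), and with the offsets at -0.33 (edgeR adjusted p 0.288).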
